A study of Mus musculus with 6 samples.

Results

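Ubiquitin ligases that act in muscle wasting, with the transcription factors that control them, were followed here as 10 genes: Fbxo32, Trim63, Trim54, Trim55, Fbxo30, Fbxo21, Mul1, Traf6, Foxo1 and Foxo3. They were found by gene symbol, and all 10 were present among the 33919 genes of the deposited table. The table holds RNA sequencing of 6 libraries labelled mouse aorta, 3 from mice with the genotype wild type (WT) and 3 from knockout (KO) mice, all treated with Ang II (angiotensin II), the vasoconstrictor of the renin-angiotensin system. It compares the genotypes under that treatment, and the series title names endothelial OTUD1, a deubiquitinating enzyme. The labels give the allele only as KO and name no strain, age, dose, Cre driver or untreated group. Both groups carry the same Ang II treatment, so no value below measures the response to Ang II itself.

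Muscle fibres break down their own proteins through the ubiquitin-proteasome system, in which an E3 ligase picks the substrate that is tagged for the proteasome. Fbxo32 (MAFbx, or atrogin-1) and Trim63 (MuRF1) are the ligases used most widely as markers of muscle atrophy, and the FoxO factors encoded by Foxo1 and Foxo3 activate both genes when insulin and IGF signalling through AKT is low. Glucocorticoids act on the same genes. Fbxo32 and Trim63 are known chiefly as striated-muscle transcripts. Which cells carried them in these libraries was not tested.

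Skeletal muscle transcripts were abundant in these libraries. All 25 listed skeletal muscle markers were detected, with a summed level of 32985 to 33462 CPM (counts scaled to library size, which was adjusted by TMM, the trimmed mean of M-values) under the WT label and 41474 to 42784 under the KO label. The 12 smooth muscle markers that define the aortic wall summed to 636.3 to 647.7 and 277.1 to 280.8 CPM. Cardiac markers summed to 18.7 to 31.4 CPM over all 6 libraries, and the atrial gene Nppa had 0 to 7 counts in a library. Adipocyte markers summed to 3642 to 3811 CPM, and the extraction protocol in the labels speaks of adipose tissue. In whole-tissue RNA, fewer cells of a type cannot be told apart from less RNA per cell. Otud1 levels were higher under the KO label (log2 change 0.63, SE 0.12, adjusted p = 0.0039 by edgeR), although not past the threshold relative to the skeletal muscle markers (0.25, adjusted p = 0.16). Neither value is a decrease, so groups are named by their labels and every direction is that of KO relative to WT. Total counts ran from 62335027 to 71525109 per library. Outside mitochondrial genes and nuclear copies of them, counts were 17343166 to 19404472 under the WT label and 22972263 to 23363543 under the KO label.

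The start regions of Trim63 and Trim54 are shown because both genes are MuRF ligases measured at a clear level here and because the window of Trim63 holds the FoxO core letters. Each line is the RefSeq sequence (GRCm38.p6) of the 250 bases before the annotated start, on the plus strand, 5′ to 3′. Capitals mark 3 motifs searched on both strands: the FoxO core GTAAACA, the core AGAACA of glucocorticoid receptor sites and the E-box CAGCTG, which myogenic factors bind. The letters were chosen with the sequences in view. The windows are chr4:134314870-134315119 for Trim63 and chr5:31116362-31116611 for Trim54.
Trim63: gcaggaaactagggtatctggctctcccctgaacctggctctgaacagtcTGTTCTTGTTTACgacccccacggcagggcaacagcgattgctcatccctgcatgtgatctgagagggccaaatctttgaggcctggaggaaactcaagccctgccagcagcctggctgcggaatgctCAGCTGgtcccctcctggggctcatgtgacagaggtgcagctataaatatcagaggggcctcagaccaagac
Trim54: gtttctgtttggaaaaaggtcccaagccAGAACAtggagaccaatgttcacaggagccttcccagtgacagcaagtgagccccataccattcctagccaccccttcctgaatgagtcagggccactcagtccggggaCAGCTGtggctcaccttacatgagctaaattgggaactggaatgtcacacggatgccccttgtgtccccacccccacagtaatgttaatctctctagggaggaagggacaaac
In Trim63 the AGAACA core, read on the minus strand, lies 200 to 195 bases before the start and the FoxO core, also on the minus strand, directly follows it at 194 to 188. A CAGCTG E-box lies 72 to 67 bases before the start. Trim54 holds AGAACA on the plus strand at 222 to 217 bases and CAGCTG at 113 to 108 bases before its start, and no FoxO core in this window. These distances are from the RefSeq start, which lies upstream of the start of Trim54 in the deposited table. Among 32851 RefSeq windows of the same length, 3.17% hold GTAAACA, 16.1% AGAACA and 13% CAGCTG on either strand. The windows of Traf6, Foxo1, Mul1, Fbxo21, Fbxo30 and Foxo3 hold 0 matches to any of the 3 motifs. By the deposited positions the Fbxo30 window lies inside the gene, and those of Fbxo21 and Foxo3 cover part of theirs. No window was found for Fbxo32 or Trim55. The windows also differ in CpG content: Trim63 and Trim54 have 4 and 2 CG dinucleotides, against 13 to 40 in the other 6, with a median of 6 over all windows. A match is a description of letters, and binding was not measured.

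Trim54 and Fbxo32 rose in the libraries labelled KO, and the other 8 genes did not pass the test. Of 16620 genes tested, 22% passed edgeR's quasi-likelihood test at an adjusted p of 0.05, 11.5% higher and 10.5% lower. Against this background 2 of the 10 genes were higher and 0 lower. The CPM values of the groups did not overlap in 5 of the 10 genes, all 5 higher in the libraries labelled KO, where 19.3% of all genes tested were apart in that direction, 19.4% in the other and 38.6% in either. An unadjusted p under 0.05 by edgeR was reached by the same 5 genes. The share of all genes at that level was not computed, so this count has no background and adds no separate result. All 10 passed the filter on low counts. Their median log2 change was 0.19, beside -0.020 over all genes tested.

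Fbxo32 encodes the F-box protein that brings substrates such as MyoD and eIF3f to an SCF ligase. The gene (ENSMUSG00000022358, chromosome 15, 58175879 to 58214932, minus strand, GRCm38) gave 1418, 1065 and 1498 counts under the WT label and 3607, 3609 and 3741 under the KO label. The deposited FPKM (fragments scaled to gene length and library total) was 2.58, 2.09 and 3.10 against 7.21, 6.67 and 6.84. The groups lay far apart, and the 3 libraries labelled KO were closer to each other than the 3 labelled WT. Its mean level went from 20.9 ± 3.12 to 50.5 ± 1.09 CPM (SD, n = 3 each). The log2 change was 1.27 (SE 0.10, 2.41-fold), with an adjusted p of 8.3e-06 by edgeR. An antisense gene, Gm15943, shares 186 bases or 2.67% of the exonic sequence of Fbxo32 and had 256 to 400 counts in each library. No source used here says whether counting used strand, so reads in that stretch cannot be told apart.

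The MuRF family comprises Trim63, Trim55 and Trim54, ligases that sit in the sarcomere and on microtubules of striated muscle. Trim63 (ENSMUSG00000028834, chromosome 4, 134315120 to 134329629, plus strand) is the member that tags myosin and other thick-filament proteins. It had 4.55, 3.73 and 5.04 FPKM under the WT label and 7.03, 6.44 and 5.35 under the KO label. The groups did not overlap, but the third library labelled KO was only just above the highest labelled WT. The log2 change was 0.35 (SE 0.11, 1.27-fold), and its adjusted p of 0.051 by edgeR did not pass. Without that library the change was 0.43 and the adjusted p 0.031 by edgeR. With any other single library left out Trim63 did not pass, at an adjusted p of 0.057 to 0.17.

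Trim54 (MuRF3; ENSMUSG00000062077, chromosome 5, 31116712 to 31137630, plus strand) stabilises microtubules in muscle cells. It was the most abundant of the 10 genes per length, at 44.3, 43.9 and 49.1 FPKM under the WT label and 94.7, 88.2 and 77.6 under the KO label. Every library labelled KO was above every library labelled WT by a wide margin. The log2 change was 0.77 (SE 0.06, 1.71-fold, adjusted p = 5.7e-06 by edgeR). The antisense gene Gm15469 overlaps 26.6% of its exonic bases and had 24 to 108 counts in a library, against 4611 to 9812 for Trim54. Trim55 (MuRF2; ENSMUSG00000060913, chromosome 3, 19644474 to 19692421, plus strand), which binds titin, was scarce, at 0.527, 0.531 and 0.558 FPKM against 0.883, 0.940 and 1.10. Its groups did not overlap either. With 103 to 229 counts in a library its log2 change of 0.70 had an SE of 0.25 and an adjusted p of 0.070 by edgeR.

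**Figure D1:**
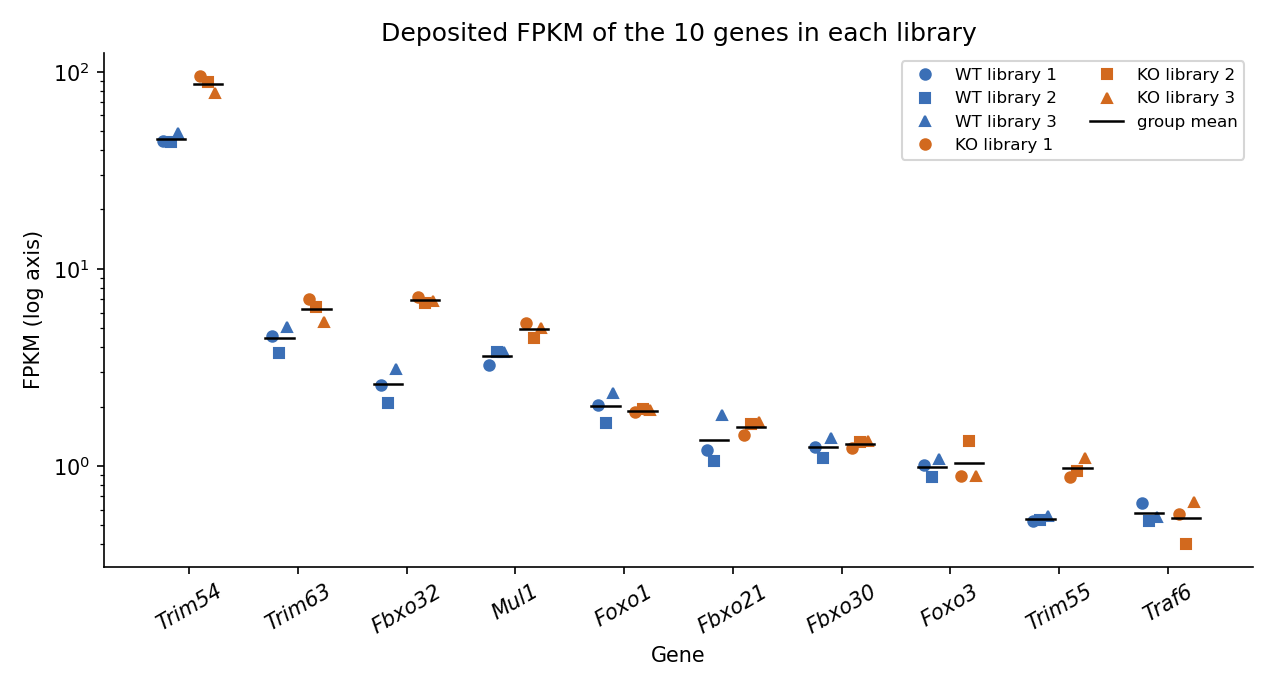
Deposited FPKM (log axis) of the 10 genes, ordered by mean level, in each of the 3 libraries labelled WT (blue) and the 3 labelled KO (orange); bars are group means. Trim54 lies above all others, and the groups are apart for Trim54, Trim63, Fbxo32, Mul1 and Trim55. The share of all genes apart in FPKM was not computed. In CPM, where the same genes were apart, 19.3% of all genes tested were apart and higher, and 38.6% in either direction.

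Fbxo30 and Fbxo21 encode the F-box proteins known as MUSA1 and SMART, which are induced in denervated or starved muscle. Fbxo30 (chromosome 10, 11281330 to 11298052, plus strand) had 1.25, 1.10 and 1.39 FPKM under the WT label and 1.23, 1.33 and 1.33 under the KO label. Fbxo21 (chromosome 5, 117976730 to 118010201, plus strand) had 1.2, 1.06 and 1.82 against 1.44, 1.62 and 1.66. Both genes overlapped between groups, and the third library labelled WT was the highest of all 6 for each. The log2 change of Fbxo30 was -0.09 (95% interval -0.38 to 0.21). For Fbxo21 it was 0.07 (95% interval -0.31 to 0.46), and it turned to -0.051 without the second library labelled WT. Under TMM scaling these intervals exclude a 2-fold change in either direction. Scaled instead to the slow fibre genes described below, the interval of Fbxo21 was 0.39 to 1.16, which includes a 2-fold rise. That of Fbxo30 was 0.32 to 0.92, which does not.

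Mul1 and Traf6 act outside the sarcomere. Mul1 (chromosome 4, 138434671 to 138442265, plus strand) encodes a ligase of the outer mitochondrial membrane that tags mitofusin 2. Its FPKM was 3.27, 3.77 and 3.79 under the WT label and 5.28, 4.45 and 5.03 under the KO label, with no overlap. The log2 change was 0.30 (SE 0.10, 1.23-fold), with an adjusted p of 0.062 by edgeR. Traf6 (chromosome 2, 101678429 to 101701669, plus strand), a ligase that builds lysine-63 chains downstream of cytokine receptors, was the lowest of the 10 genes per length. It had 0.647, 0.528 and 0.551 FPKM against 0.568, 0.404 and 0.658, and the highest and the lowest of the 6 libraries were both labelled KO. Its log2 change was -0.23 (95% interval -0.69 to 0.22, adjusted p = 0.49 by edgeR). It was -0.13 without the first library labelled WT, -0.062 without the second labelled KO and -0.42 without the third labelled KO.

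Neither FoxO factor passed the test. Foxo1 (chromosome 3, 52268336 to 52353221, plus strand) had 2.04, 1.66 and 2.35 FPKM under the WT label and 1.87, 1.94 and 1.91 under the KO label. The groups overlapped, and the libraries labelled KO lay closer together. An antisense gene, Gm20402, overlaps 7.78% of its exonic bases. It was not listed by that symbol among the deposited genes, so it has no counts here. The log2 change was -0.22 (95% interval -0.46 to 0.02, adjusted p = 0.19 by edgeR). Foxo3 (chromosome 10, 42181841 to 42276752, minus strand) had 1.01, 0.880 and 1.08 against 0.889, 1.34 and 0.888. A single library, the second labelled KO, was above the rest. The log2 change was -0.07 (95% interval -0.46 to 0.31), and -0.31 without that library. It was 0.049 and 0.011 without the first and the third library labelled KO. FoxO activity depends chiefly on phosphorylation and export from the nucleus, which RNA levels do not show.

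Per length, mean FPKM over the 6 libraries ran in the order Trim54 (66.3), Trim63 (5.36), Fbxo32 (4.75), Mul1 (4.26), Foxo1 (1.96), Fbxo21 (1.47), Fbxo30 (1.27), Foxo3 (1.01), Trim55 (0.756) and Traf6 (0.559). The range of Trim54, from 43.9 to 94.7, did not meet that of Trim63, from 3.73 to 7.03. Trim63, Fbxo32 and Mul1 overlapped in range, as did each later neighbour pair from Foxo1 down. The second library labelled WT gave the lowest FPKM of its group in 8 of the 10 genes, and the lowest CPM in 6. It also had the fewest counts outside mitochondrial genes, and the part of depth in this was not tested.

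Ratios within a library do not depend on how libraries are scaled to each other. The FPKM of Fbxo32 was 0.569, 0.560 and 0.615 times that of Trim63 in the libraries labelled WT, and 1.03, 1.04 and 1.28 times under the KO label. The order of both atrophy ligases per length thus differed between the groups, with Trim63 above Fbxo32 in each WT library and Fbxo32 above Trim63 in each KO library. In counts, which are not divided by length, Fbxo32 was above Trim63 in every library, at 1418 against 1017 in the first labelled WT. The change of order therefore rests on the length correction, while the change in ratio does not. The geometric mean ratio of FPKM was 1.91-fold higher under the KO label. Trim54 to Trim63 was 9.74, 11.8 and 9.74 against 13.5, 13.7 and 14.5, also apart (1.34-fold). Trim55 to Trim63 overlapped (0.111 to 0.142 against 0.126 to 0.205), and so did Foxo1 to Foxo3 (1.88 to 2.18 against 1.45 to 2.16). With 3 libraries against 3 an exact two-sided permutation test over 20 splits cannot fall below 0.1. The first 2 ratios gave that value (adjusted p = 0.2 over 4 ratios), Trim55 to Trim63 gave 0.2 (adjusted 0.27) and Foxo1 to Foxo3 gave 0.8 (adjusted 0.8).

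**Figure D2:**
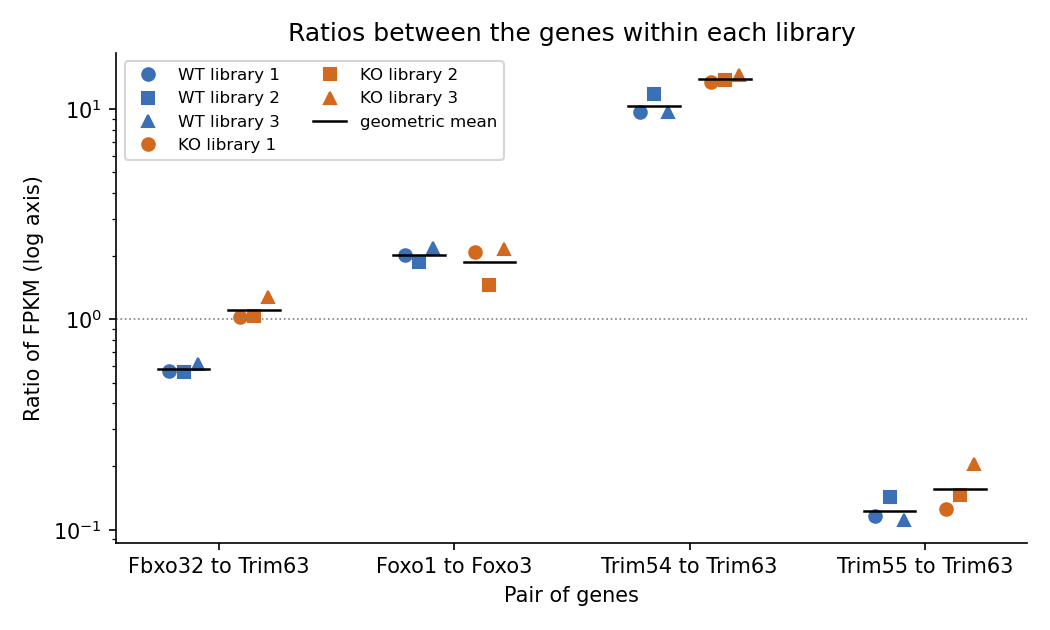
Ratio of FPKM (log axis) for 4 pairs of genes within each library labelled WT (blue) and KO (orange); bars are geometric means and the dotted line marks equal FPKM. Fbxo32 to Trim63 lies between 0.560 and 0.615 under the WT label and between 1.03 and 1.28 under the KO label.

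Skeletal muscle markers were also higher in the libraries labelled KO, and their part in the results above was not tested beyond the scaling that follows. Of the 25 markers, 17 were higher and 5 lower, with a median log2 change of 0.40, and the 13 fast fibre genes had 9 higher and 1 lower while the 11 slow fibre genes had 2 higher and 7 lower (median -0.77). The libraries were therefore also scaled to the skeletal muscle markers by their median ratio. Relative to them Fbxo32 was still higher (log2 change 0.89, SE 0.11, adjusted p = 0.00012 by edgeR), and so was Trim54 (0.39, SE 0.06, adjusted p = 0.00042). Trim63 stood at -0.032 (adjusted p = 0.85) and Mul1 at -0.086 (0.56), both with the sign turned, and Trim55 at 0.32 (0.36). Foxo1 (-0.60, adjusted p = 0.0024), Fbxo30 (-0.46, 0.024) and Traf6 (-0.61, 0.042) were lower relative to muscle genes, as were 32.6% of all genes tested, while 3.22% were higher and 35.8% passed in all. The median of all genes lay at -0.40 on this scale. Among the 25 skeletal muscle markers themselves 9 were higher and 11 lower on it, and among the 13 fast fibre genes 4 were higher and 5 lower. A higher value on this scale was thus frequent among muscle genes. The shares of 3.22% higher and 32.6% lower are also the background for each list count relative to the muscle markers given below. Against the slow fibre genes, a reference chosen after seeing the data, 9 of the 10 genes were higher, as were 53.0% of all genes (2.79% lower, 55.8% in all, median 0.68), and the remaining gene, Traf6, stood at 0.47 (adjusted p = 0.066). Against the fast fibre genes, also chosen after seeing the data, the same 5 genes passed as with all skeletal muscle markers and in the same directions, against 2.98% of all genes higher and 35.8% lower, 38.7% in all.

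**Figure D3:**
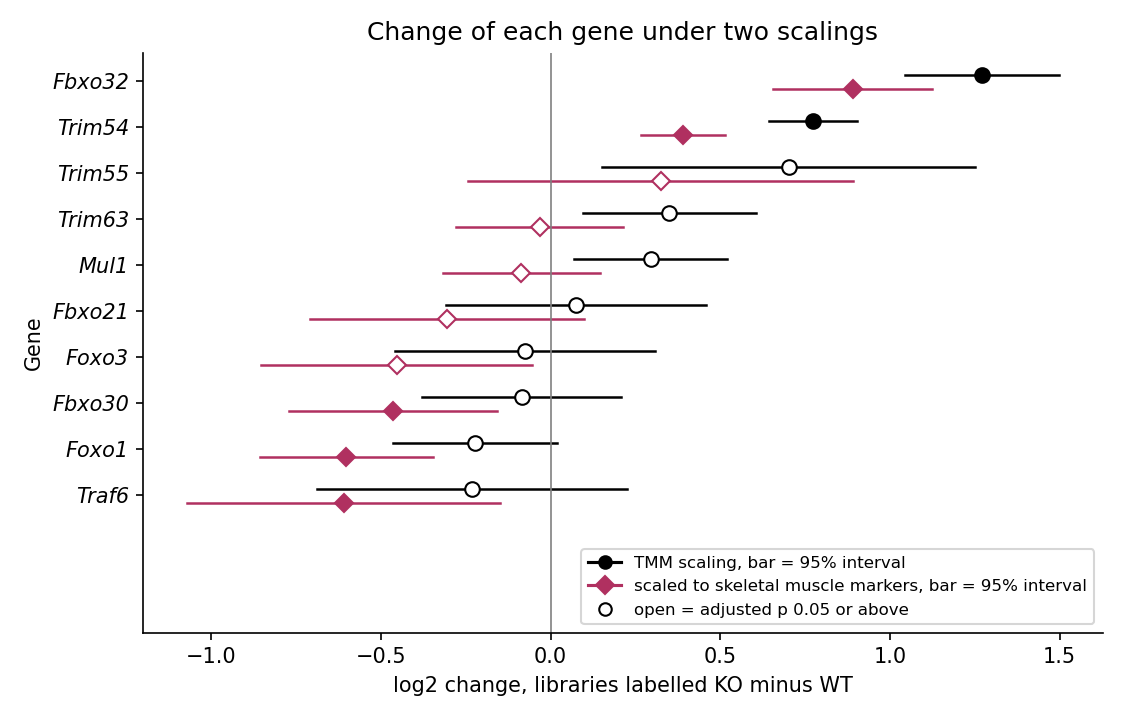
The log2 change (libraries labelled KO minus WT) of each gene with its 95% interval, scaled by TMM (black circles) and relative to the skeletal muscle markers (red diamonds); filled symbols passed an adjusted p of 0.05. Fbxo32 and Trim54 are filled and above 0 in both, while Foxo1, Fbxo30 and Traf6 are filled and below 0 relative to the muscle markers.

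The calls for Trim63, Mul1 and Trim55 depended on the test. DESeq2 called 5 of the 10 genes higher, adding Trim63 (adjusted p = 0.0061), Mul1 (0.0085) and Trim55 (0.024), against 12.6% of all genes higher, 12.7% lower and 25.3% in all. The same 5 passed in limma on log2(FPKM + 1), against 25.5% higher, 7.68% lower and 33.2% in all. The FPKM values as deposited put more genes higher: 76.8% of the genes limma called, against 52.1% in the main test, 9.0% relative to skeletal muscle markers, 7.70% relative to fast fibre genes and 95% relative to slow fibre genes. The median of all genes was 0.11 in limma. After quantile normalization the share was 51.2%, and Trim63 and Mul1 no longer passed in limma (adjusted p = 0.11 and 0.14).

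Other ubiquitin ligases of muscle were more often higher than lower. Of 29 listed, all tested, 13 were higher and 1 lower (median 0.39). Fbxo31, an F-box gene, had the smallest p of those that rose (log2 change 0.81, adjusted p = 1.8e-06), and Fbxo40, a muscle-specific F-box gene that targets IRS1, rose by 0.71, from 61.0 ± 2.64 to 99.5 ± 1.2 CPM (SD, n = 3 each). Nedd4, a HECT ligase, fell by 0.35, a call lost in limma on FPKM (-0.17, adjusted p = 0.087 with a pseudocount of 1, 0.091 with 0.1 and 0.088 without a filter). Relative to the skeletal muscle markers the same list had 4 members higher and 8 lower (median 0.0087). Fbxo31 (0.43) and Fbxo40 (0.32) were among those still higher there.

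The general ubiquitin machinery gave calls in both directions. Of 22 genes for ubiquitin and its E1 and E2 enzymes, 7 were higher and 2 lower (median 0.13), and relative to the skeletal muscle markers 1 was higher and 8 lower (median -0.25). Ube2r2, an E2 that works with SCF ligases, fell by 0.43, a call that limma on FPKM did not give (-0.24, adjusted p = 0.055 with a pseudocount of 1, 0.058 with 0.1 and 0.11 without a filter). Ube2n, the lysine-63 E2 used by TRAF6, had a log2 change of -0.20 (adjusted p = 0.18). Among 9 tested genes of the SCF core and its NEDD8 pathway, 2 were higher and 7 did not pass. DESeq2, and edgeR without the first library labelled WT, also called 2 lower, and relative to the muscle markers 5 of the 9 were lower. Ube2m, the NEDD8 E2, rose by 0.48, although relative to muscle markers it stood at 0.096 (adjusted p = 0.32). Of the SCF partners of Fbxo32, Cul1 had a log2 change of 0.18 (adjusted p = 0.34) and Rbx1 of 0.07 (0.54), and relative to the muscle markers Rbx1 was lower (-0.31, 0.0061). Skp1a lay at the threshold (-0.27, adjusted p = 0.0503). It passed as lower in 8 of 17 alternatives: DESeq2 (0.0027), DESeq2 size factors (0.049995), limma after quantile normalization (0.022), counts divided by 4 (0.022), mitochondrial genes removed (0.045), without WT library 1 (0.044) or KO library 3 (0.048), and relative to the muscle markers (-0.65, 0.00045).

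FoxO targets included genes in both directions. Of 29 such genes in muscle, which cover autophagy, stress and metabolic targets, 10 were higher and 4 lower (median 0.12). With 1 library left out 6 to 8 were higher and 2 to 3 lower, the fewest higher without WT library 1 or KO library 1, and limma after quantile normalization called 3 higher and 5 lower. Sqstm1, the autophagy receptor p62, rose by 0.65, from 92.6 ± 1.99 to 145.8 ± 3.02 CPM. Sesn3, a sestrin that restrains mTORC1, fell by 1.25, from 6.23 ± 0.566 to 2.62 ± 0.485 CPM. This gene was scarce, at 168 to 411 counts in a library. Relative to the skeletal muscle markers 2 of the 29 were higher and 15 lower. A list of 25 genes drawn up for substrates of MAFbx or the MuRF ligases also holds the mitofusin genes Mfn1 and Mfn2. Mitofusin 2 is named above as a target of Mul1. Of the 25 genes, 16 had higher and 4 lower transcripts (median 0.42), and 13 of the 25 are also in the skeletal muscle list. Relative to the skeletal muscle markers 9 of the 25 were higher and 10 lower (median 0.036). Des, the intermediate filament desmin, rose by 1.23 and Myl3, a slow-fibre myosin light chain, fell by 1.27.

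Transcripts of genes whose products feed into FoxO changed in both directions. Of 28 genes of insulin, IGF and FoxO regulation, 6 were higher and 7 lower (median 0.04), and relative to the skeletal muscle markers 3 were higher and 13 lower (median -0.34). Igf1, the growth factor that represses atrophy genes, was 2.0-fold lower, at 20.5 ± 0.381 CPM under the WT label and 10.3 ± 1.99 under the KO label (adjusted p = 0.00031 by edgeR). Its receptor Igf1r had a log2 change of 0.16 (adjusted p = 0.47), Akt1 -0.25 (0.067), Akt2 -0.0050 (0.96) and Foxo4 -0.18 (0.11). DESeq2 called Akt1 (0.0083) and Foxo4 (0.032) lower, as did limma after quantile normalization (0.023 and 0.015), and counts divided by 4 gave the call for Akt1 (0.034). Relative to the muscle markers Akt1 (-0.63, 0.00024), Akt2 (-0.39, 0.00016) and Foxo4 (-0.57, 0.00024) were lower. Mtor, the kinase of mTORC1, rose by 0.93. Among the 6 higher is Igf2, named after its values were seen, at 21.1, 21.1 and 0 CPM under the KO label and 0.0799 to 0.283 under the WT label, so 1 KO library stood apart from the other 2.

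Glucocorticoid-responsive genes were more often higher, with 8 of 15 higher and 2 lower (median 0.51). Mt1, a metallothionein, rose by 1.5 and Fkbp5, a co-chaperone of the glucocorticoid receptor, by 0.76, from 27.4 ± 3.34 to 46.5 ± 0.0992 CPM. Klf15, a transcription factor that glucocorticoids induce and that acts on Fbxo32 and Trim63, rose by 0.51, but stood at 0.13 relative to muscle markers (adjusted p = 0.34). Nr3c1, the receptor gene itself, fell by 0.43, but did not pass in limma on FPKM (-0.21, adjusted p = 0.051 with a pseudocount of 1, -0.27 and 0.051 with 0.1, and 0.062 without a filter). Sgk1, a kinase that phosphorylates FoxO factors, fell by 0.50. Relative to the muscle markers 6 of the 15 were higher and 4 lower.

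In the list of TRAF6 and NF-kB signalling 1 of 22 tested genes was higher and the other 21 did not pass (median -0.10). DESeq2 called 1 higher and 5 lower, where it called 12.6% of all genes higher and 12.7% lower. Relative to the skeletal muscle markers 12 of the 22 were lower, as were 32.6% of all genes tested. The higher gene was Tab1, an adaptor of the kinase TAK1 (0.41, adjusted p = 0.019). Its call was lost without WT library 1, WT library 3 or KO library 3 (0.071, 0.062 and 0.060), and relative to the muscle markers it stood at 0.029 (0.87). Of 15 tested denervation genes 1 was higher and 1 lower. Myh8, the perinatal myosin, rose by 1.63, from 2.65 ± 1.46 to 8.25 ± 0.593 CPM. Gadd45a, a stress gene induced by denervation, fell by 0.89 (adjusted p = 0.014). Leaving out the second WT library gave an adjusted p of 0.059, leaving out the second KO library 0.054, and limma without a filter 0.073. Myog, the myogenic factor that drives Fbxo32 and Trim63 after denervation, was scarce, at 26 to 126 counts in a library (log2 change 0.69, adjusted p = 0.45). Without the third KO library, which holds the highest count, the change was 0.074. Of 17 myostatin and activin genes 5 were lower and 12 did not pass (median -0.40). The number lower was 3 without WT library 2, WT library 3, KO library 1 or KO library 2, 1 in limma on log2(FPKM + 1), 8 with DESeq2 and 10 relative to the skeletal muscle markers. Inhba, the activin A subunit, fell by 3.79, and the change was -4.46 without the second library labelled KO. Mstn, which encodes myostatin, had 4.49 ± 1.07 and 6.73 ± 1.16 CPM (0.58, adjusted p = 0.070, and 0.039 without the first library labelled WT). Fibroblast markers, of which all 12 were lower (median -1.34), and smooth muscle markers, of which 9 of 12 were lower and 1 higher, moved with the activin genes, and their part in that result was not tested.

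**Figure D4:**
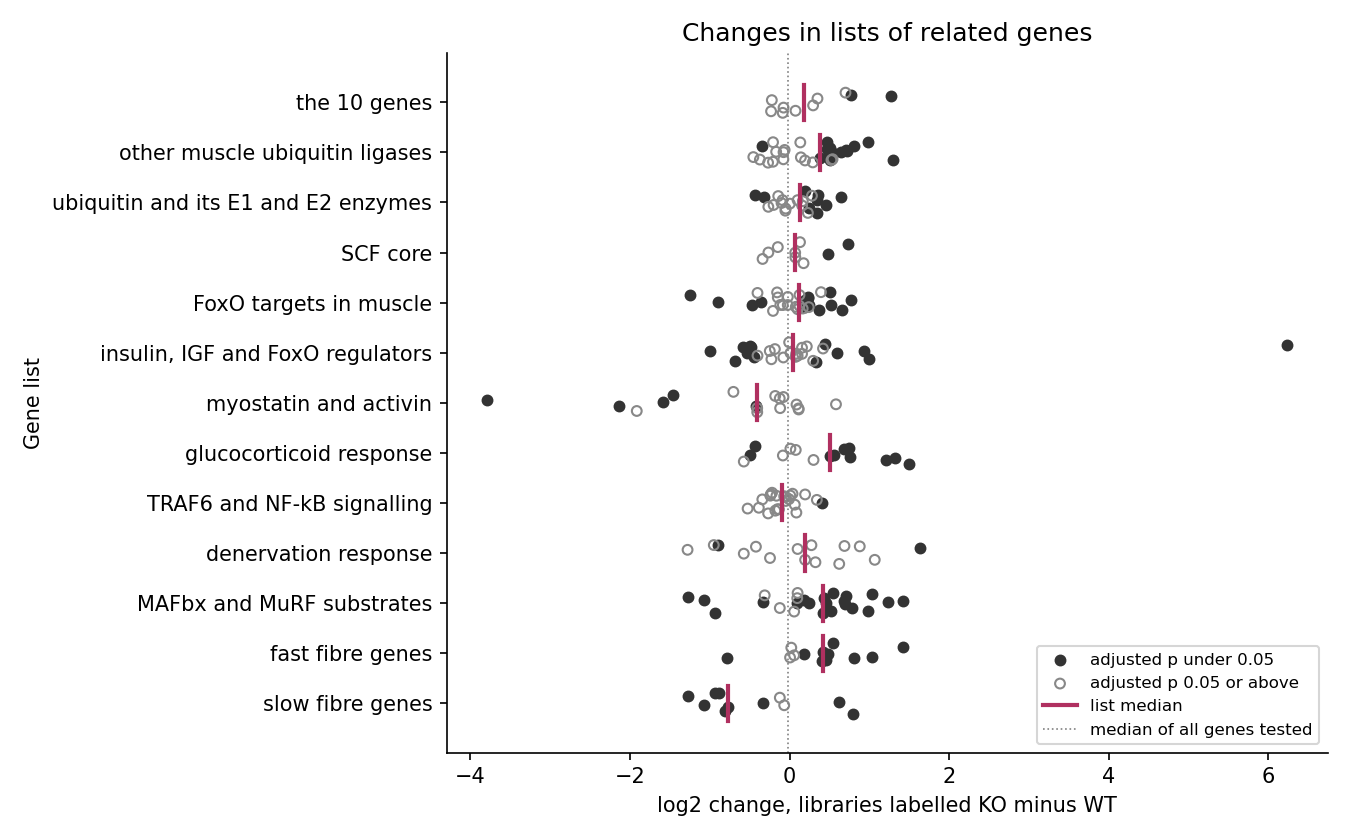
The log2 change (libraries labelled KO minus WT) of every tested gene in each list of related genes; filled points passed an adjusted p of 0.05, red bars are list medians and the dotted line is the median of all genes tested (-0.020). Medians run from -0.77 for slow fibre genes to 0.51 for glucocorticoid response genes, and the point at 6.24 is Igf2.

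The genes closest in pattern to Fbxo32, by Pearson correlation of log2 CPM over the 6 libraries among 5485 genes with a mean FPKM of at least 2, were Coq9 (r = 0.9997), Rpl32 (0.9993) and Synpo2 (0.9991). Their own log2 changes were 0.42, 0.24 and 0.31, smaller than that of Fbxo32. For Trim63 they were Gba2 (0.988), Tcn2 (0.984) and Abhd16a (0.983). A correlation above 0.95 was reached by 675 genes with Fbxo32 and by 59 with Trim63. The points share their libraries and the group difference, so these values describe likeness only.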

How the data were processed

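Poly(A) RNA was sequenced in 6 libraries, grouped by the genotype label, with 3 mice per group per the design text. The authors deposited whole-number counts per gene without normalization, and FPKM, per the file headers. Bowtie 0.12.2, HISAT2 2.0 and mm8 are listed, without roles, per the submitters' processing notes. No source used here names the counting program or its strand option. Gene positions matched GENCODE release 21 on GRCm38 for 9 of the 10 genes (the end of Foxo3 differed by 3 bases), so GRCm38 is given.

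The count test was edgeR 4.0.16 under R 4.3.3: filterByExpr, TMM, quasi-likelihood F-test on genotype, two-sided, Benjamini-Hochberg over 16620 genes, threshold 0.05. Standard errors are the log2 change divided by the root of F. Alternatives used DESeq2 1.42.0, limma 3.58.1 on log2(FPKM + 1), which understates changes of low genes, other scalings, a replicate block and each library left out. Low counts from 1 to 40 fell on multiples of 4 in 33.0% to 34.9% of cases (chance 25%), and the cause was not tested. Counts divided by 4 were tried. RefSeq windows were found for 8 of the 10 genes.

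The genes and lists were chosen with earlier results of these data known, and give descriptions without set tests. Named genes were the 10, the smallest p per direction in each of 10 related lists, 16 fixed genes, Otud1, the top gene of each marker list and the 3 genes most like Fbxo32 and Trim63. A gene that this rule names is not reported here. The top marker genes were, by mean CPM, Acta1 (skeletal), Tnnc2 (fast), Myh7 (slow), Myh6 (cardiac), Acta2 (smooth muscle), Gsn (fibroblast), Egfl7 (endothelial), Fabp4 (adipocyte), Ucp1 (brown fat), Lyz2 (macrophage), S100a9 (neutrophil) and Cdh15 (muscle stem cell). Lists not described in the results gave, higher and lower: endothelial 2 and 4 of 12, adipocyte 4 and 4 of 10, brown fat 4 and 3 of 9, macrophage 5 of 8 lower and 3 not passing, neutrophil 5 and 1 of 8, muscle stem cell 1 and 1 of 6, cardiac 1 and 2 of 7. Figures were drawn with matplotlib 3.10.9.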

Additional observations from a re-analysis of the deposited data

How the results depend on the processing

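Fbxo32 and Trim54 kept their direction and their call under all 19 alternatives, and Trim55 kept its direction. The number of the 10 genes called, 2 in the main test, was 5 with DESeq2, 5 with limma on log2(FPKM + 1) and on log2(FPKM + 0.1), 4 with limma without a filter, 5 scaled to skeletal muscle markers, 5 scaled to fast fibre genes and 9 scaled to slow fibre genes. It was 2 to 3 when 1 library was left out. The number of all genes called was 3658 of 16620 in the main test. Of the same 16620 it was 5947 scaled to skeletal muscle markers, 6438 scaled to fast fibre genes and 9266 scaled to slow fibre genes. DESeq2 called 5263 of 20769. Limma called 3558 and 3494 of 10726 with a pseudocount of 1 and 0.1, and 2621 of 28426 without a filter. With 1 library left out 2878 to 3171 were called, of 17359 to 17540 tested. The scalings to fast and slow fibre genes were chosen after seeing the data. Scaling to a list sets that list's median near 0 by construction.

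Signs turned as follows (log2 change). Scaled to skeletal muscle and to fast fibre genes: Trim63 -0.032 and -0.064, Fbxo21 -0.30 and -0.34, Mul1 -0.086 and -0.12. Scaled to slow fibre genes: Fbxo30 0.62, Traf6 0.47, Foxo1 0.48, Foxo3 0.63. In limma with a pseudocount of 1 (with and without a filter) and of 0.1: Fbxo30 0.035 and 0.060, Foxo3 0.028 and 0.043, Akt2 0.14 and 0.15. With 1 library left out: Fbxo21 -0.051 to 0.29, Foxo3 -0.31 to 0.049, Akt2 -0.033 to 0.0094. Scaled to skeletal muscle markers: Igf1r -0.22, Cul1 -0.20, Rbx1 -0.31, and Rbx1 was -0.014 after quantile normalization. The cause was not tested.

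With 1 library left out the log2 ratio of Fbxo32 to Trim63 (0.93) ran from 0.83 to 0.99, Trim54 to Trim63 (0.42) from 0.37 to 0.51, Trim55 to Trim63 (0.34) from 0.15 to 0.50 and Foxo1 to Foxo3 (-0.11) from -0.21 to 0.073. Ratios of counts gave 0.93, 0.42, 0.34 and -0.11.

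With the replicate number as a block 3255 genes and 2 of the 10 were called. Deviations of same-numbered libraries correlated at 0.024, -0.0086 and 0.018, within the -0.047 to 0.029 of differently numbered ones. These values show no pairing by number, but with 3 libraries per group they cannot exclude one. Low counts limit Trim55 (103 to 229 in a library), Myog (26 to 126), Inhba (8 to 244), Sesn3 (168 to 411) and Myh8 (99 to 631). Sesn3, Myh8, Inhba and Igf1r lay below the mean FPKM of 0.5 that limma's filter asked for, so the filtered limma fits did not test them.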
